A study of Mus musculus with 18 samples.

Results

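The genes described here were near silent in wild-type mouse embryonic stem (ES) cells, stood at 2 TPM or more when Ring1b was knocked out, and were near silent when Ring1a and Ring1b were both knocked out. They were chosen by mean TPM (a transcript share corrected for length and scaled to a total of 1000000) over 3 libraries: under 1 in WT, at least 2 in Ring1b-KO and under 1 in Ring1a/b-dKO. The rule took 283 of 56551 genes. After 9 genes of the Zscan4 family were set aside, 274 members remained. The study measured RNA in 18 libraries of mouse ES cells in 6 genotype groups of 3: WT, Ring1a-KO, Ring1b-KO, Ring1a/b-dKO, Pcgf-4KO (Pcgf1/3/5/6-/-) and Pcgf-6KO, in which Pcgf2 and Pcgf4 are knocked out as well. The labels name no clone, deletion scheme, medium or day, and do not tell if replicates are separate cultures, so each p-value speaks only of the spread among these libraries. The levels in WT, Ring1b-KO and Ring1a/b-dKO chose the members, and these 3 groups are not tested against each other. Ring1a-KO, Pcgf-4KO and Pcgf-6KO took no part in the choice. They are also tested against WT, whose level the rule bounds.

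Polycomb repressive complex 1 (PRC1) is built around RING1A or RING1B, the enzymes that place ubiquitin on histone H2A. Each complex also holds 1 of 6 PCGF proteins. PCGF2 and PCGF4 mark canonical PRC1, which binds chromatin through CBX proteins, and PCGF1, PCGF3, PCGF5 and PCGF6 mark variant complexes. A small share of cells in ES cultures passes through a state like that of the 2-cell embryo, in which the factor DUX and the Zscan4 genes are switched on together with large arrays of rodent-specific genes. Many members belong to such arrays.

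Promoters of 85 members were found in RefSeq (GRCm38.p6), with 107 start sites between them. The 5 below stand for the main patterns described afterwards: a tandem array on chromosome 10, a Prame-like gene and a deubiquitinase of the 2-cell-like list, an X-linked gene highest in Pcgf-4KO, and a gene high in Ring1b-KO alone among the 6 groups. Each is the 250 bases before the RefSeq start, 5′ to 3′ on the strand of the gene, with CpG dinucleotides in capitals. None overlaps a GENCODE exon. They lie at chr10:104193792-104194041 (plus strand, Gm4340), chr4:143567217-143567466 (plus, BC080695, which RefSeq calls Pramel20), chr7:103416446-103416695 (plus, Usp17lc), chrX:73117703-73117952 (minus, Xlr5a) and chr2:13491877-13492126 (minus, Cubn).
Gm4340: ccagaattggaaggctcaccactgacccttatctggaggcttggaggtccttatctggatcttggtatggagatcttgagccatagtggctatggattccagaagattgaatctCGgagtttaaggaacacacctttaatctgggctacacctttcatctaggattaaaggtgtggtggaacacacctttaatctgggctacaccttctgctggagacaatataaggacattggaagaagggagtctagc
BC080695: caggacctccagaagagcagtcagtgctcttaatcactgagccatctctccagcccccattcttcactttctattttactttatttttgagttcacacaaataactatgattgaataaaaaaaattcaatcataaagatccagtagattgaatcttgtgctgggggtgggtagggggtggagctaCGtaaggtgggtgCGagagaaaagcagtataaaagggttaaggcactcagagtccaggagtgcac
Usp17lc: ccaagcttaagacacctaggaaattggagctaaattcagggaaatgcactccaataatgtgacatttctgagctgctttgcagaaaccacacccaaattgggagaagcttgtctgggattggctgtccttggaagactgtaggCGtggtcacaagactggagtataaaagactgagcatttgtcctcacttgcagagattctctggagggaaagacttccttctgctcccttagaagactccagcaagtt
Xlr5a: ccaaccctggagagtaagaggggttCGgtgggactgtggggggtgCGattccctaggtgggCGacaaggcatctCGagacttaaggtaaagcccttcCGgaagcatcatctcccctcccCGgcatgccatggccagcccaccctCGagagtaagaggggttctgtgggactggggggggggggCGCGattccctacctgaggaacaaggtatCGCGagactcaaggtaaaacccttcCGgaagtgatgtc
Cubn: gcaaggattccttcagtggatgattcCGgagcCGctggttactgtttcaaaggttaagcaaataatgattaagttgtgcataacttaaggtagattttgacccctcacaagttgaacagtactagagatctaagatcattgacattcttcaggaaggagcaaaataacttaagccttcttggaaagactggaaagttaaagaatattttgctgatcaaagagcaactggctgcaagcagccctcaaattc

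These sequences held 1 CpG for Gm4340, 2 for BC080695, 1 for Usp17lc, 12 for Xlr5a and 2 for Cubn. CpG-rich promoters are where PRC1 is best known to bind. Over the 300 bases around each start (250 before and 50 after), the median ratio of observed to expected CpG was 0.217 at the members' starts and 0.384 at all 32851 RefSeq starts. It was 0.573 at 360 starts of 301 genes, those matched from a set of 491. The 491 met the same WT and Ring1b-KO limits but stood at 1 TPM or more in the double knockout. Only 85 of the 274 members were matched, and their starts include near-identical copies, each counted separately. The X-linked genes described below were not alike: the ratio was 0.586 for Xlr5a, 0.591 for Xlr5b, 0.311 for DXBay18 and 0.053 for Xlr5c. A ratio of at least 0.6 was found at 8 of the members' starts (7.48%), at 46.9% of the 360 starts and at 35.8% of all starts. The E-box CACGTG, read on both strands, stood in 6.54% of the members' windows and 7.15% of all windows. TCCCGC, the core of the E2F site, stood on either strand in 11.2% of the members' windows and 20.0% of all windows. Neither string is contained in the other, and a match is a description of the sequence only.

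Members were of several kinds, and the kinds differed in how many Ring1b-KO libraries held the gene. Of the 100 protein-coding members, 92 were at 1 TPM or more in all 3 Ring1b-KO libraries, and so were 41 of 48 unannotated transcripts, 28 of 33 long non-coding or other genes and 22 of 45 pseudogenes. Of 48 small RNA genes (snoRNA, snRNA, miRNA and the like) none was: 42 reached 1 TPM in a single Ring1b-KO library and 6 in 2. Snora31, which guides RNA modification, read 0, 0 and 64.21 TPM in the Ring1b-KO libraries and 0 in the other 15 libraries. Mir6236 read 0, 104.85 and 0 TPM there, 363.23 in Ring1a-KO replicate 3 and 105.99 in Pcgf-6KO replicate 1. A mean of 2 TPM from 1 library thus put these genes in the set. The median exonic length was 136.5 bases for the 58 members at 1 TPM in 1 Ring1b-KO library and 1559.5 bases for the 183 members at 1 TPM in all 3. Levels summed over the set use those 183, while tests, positional groups and gene lists draw on all members.

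**Figure D1:**
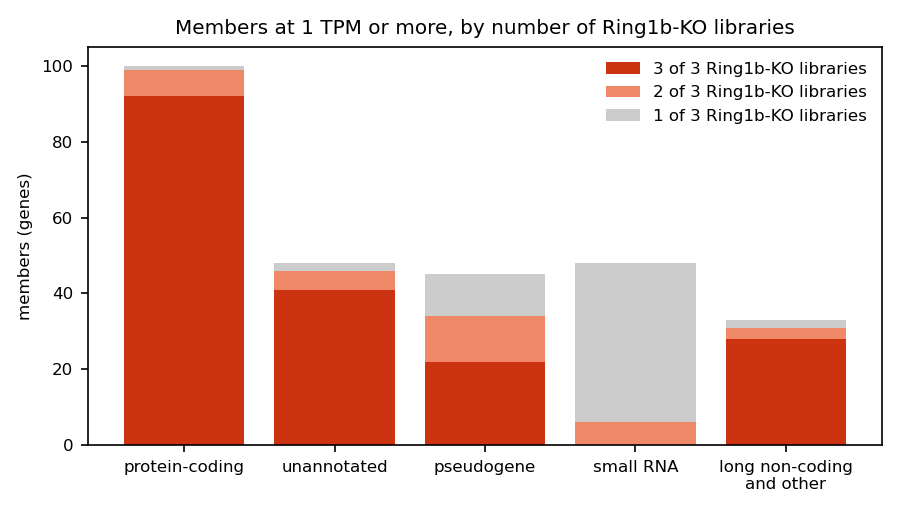
Number of members (y axis) of each gene class (x axis), split by how many of the 3 Ring1b-KO libraries held the gene at 1 TPM or more. Of 100 protein-coding members 92 reached it in all 3 libraries, and of 48 small RNA members 42 reached it in 1.

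The thresholds divided a continuum. Just inside the Ring1b-KO limit were Cdhr4, Gm16355 and Glipr1 at means of 2.01, 2.02 and 2.02 TPM, and just outside were Gm7030 and Gm16026 at 1.99 and 1.98 TPM and an unannotated transcript. Just under the WT limit stood Sycp2l, a meiotic gene, at 0.99 TPM, and just over it Panct2 at 1.01 TPM. At the double-knockout limit Car8 and AC073683.1 were inside at 0.97 TPM each, and Rhox10 outside at 1.01 TPM.

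Taken over the 183 reproducible members, the summed level was 917 to 924 TPM in the Ring1b-KO libraries, 40.0 to 44.7 in WT and 63.2 to 70.8 in Ring1a/b-dKO, as the rule requires. In the groups that the rule did not use, the sum was 48.4 to 57.2 TPM in Ring1a-KO. It reached 291 to 316 TPM in Pcgf-4KO and was 714 to 731 in Pcgf-6KO. Ring1a-KO was therefore close to WT, Pcgf-6KO came nearest to Ring1b-KO, and Pcgf-4KO lay between, with no overlap among the libraries of these 3 groups. The rule bounds WT and Ring1b-KO, so nearness to either only describes the set. Of the 183 members, 135 had a mean of 1 TPM or more in Pcgf-6KO, 76 in Pcgf-4KO and 15 in Ring1a-KO. The largest patterns were 65 members at 1 TPM or more in Pcgf-6KO alone of these 3 groups, 62 in both Pcgf groups and 33 in none. The 491 genes that stayed on in the double knockout differed in Pcgf-4KO: 88.0% of them stood at 1 TPM or more there and 90.0% in Pcgf-6KO, against 41.5% and 73.8% of the 183 members. The sets were also unlike elsewhere: the median WT mean was 0.557 TPM for the 491 and 0.087 for the 183. In Ring1a-KO 31.4% and 8.20% stood at 1 TPM or more. The 491 were chosen to reach 1 TPM in the double knockout and were not limited to reproducible genes, so a 1 TPM limit does not treat the sets alike. In bulk RNA a smaller share of expressing cells and less RNA per cell cannot be told apart.

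Of the 274 members, 224 passed the filter for testing (1 TPM or more in at least 3 libraries), most of them through the Ring1b-KO libraries. In Pcgf-6KO against Pcgf-4KO, 116 of the 224 were higher and 17 lower (limma, Benjamini-Hochberg adjusted p under 0.05). Over all 17842 genes tested, 28.8% were higher and 24% lower. The median difference on the log2(TPM + 1) scale, which understates folds of low genes, was 0.85 for the members and 0.03 for all genes tested. Many other WT-silent genes had the same order: all 3 Pcgf-6KO libraries stood above all 3 Pcgf-4KO libraries for 50.4% of the tested members and for 40.7% of the 3389 other tested genes under 1 TPM in WT, part of which passed the filter through Pcgf-6KO itself. Pcgf-4KO exceeded Ring1a-KO for 110 members and was lower for 5, beside 46.6% and 18% of all genes, so the share that was higher (49.1%) was near that of all genes. Pcgf-6KO exceeded Ring1a-KO for 153 and was lower for 5, beside 50.8% and 22.8%. Neither share was above that of the other WT-silent genes: all libraries were above those of Ring1a-KO for 51.8% of the members and 54.1% of the other genes in Pcgf-4KO, and for 66.1% and 68.2% in Pcgf-6KO. The 3 comparisons share groups, so they are not independent of one another.

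**Figure D2:**
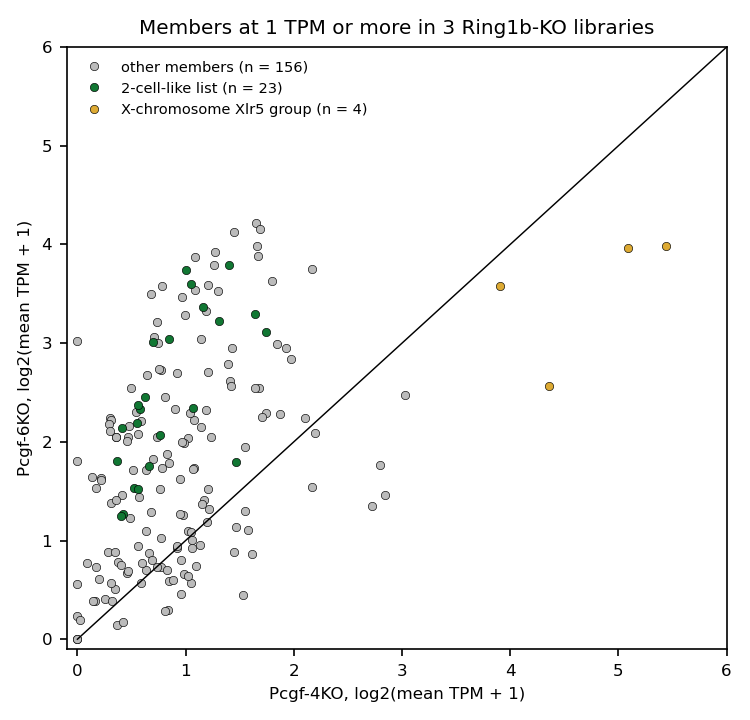
Mean level in Pcgf-4KO (x axis) and Pcgf-6KO (y axis), both as log2(mean TPM + 1), for the 183 members at 1 TPM or more in all 3 Ring1b-KO libraries. The diagonal marks equal levels: all 23 genes of the 2-cell-like list lie above it, the 4 genes of the X-chromosome group lie below it, and 122 of the 156 others lie above it.

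Against WT the rule leaves little room to fall, so a rise was nearly the only direction open, and nothing about the members is read from these counts. Pcgf-6KO was higher for 152 members and lower for 2, beside 51.7% and 22.5% of all genes tested. Pcgf-4KO was higher for 114 and lower for 3, beside 47.1% and 17.9%. Ring1a-KO was higher for 8 and lower for 1, beside 12.3% and 10.8%.

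Part of the set lay in positional groups. Among the 226 members with a position, 63 lay in 12 groups of at least 3 members with gaps of at most 500000 bases, and 44 of the 63 were protein-coding. The 63 were 27.9% of the members with a position. The same definition took 38.7% of the 142 positioned genes among the 183, and 17.9% of 459 positioned genes among the 491 that stayed on in the double knockout. These sets differ in size, and the shares were not tested. The groups on chromosomes 14 and 3 consisted mostly of small RNA genes. The rule did not use position. Members of these groups are often near-identical copies, between which the authors' quantification may have split reads, so the summed level of a group is firmer than that of any copy. For the same reason, the counts of higher copies given below are not counts of independent genes. Beside each such count for Pcgf-6KO against Pcgf-4KO stand 28.8% higher and 24% lower over all genes tested. For 40.7% of the other tested WT-silent genes, all Pcgf-6KO libraries stood above all Pcgf-4KO libraries. Gene names beginning with Gm are provisional names of predicted genes with little known function.

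The clearest case was a tandem array on chromosome 10 (104142987 to 104196522, GRCm38) holding Gm21293, Gm6763, Gm8764, Gm21304, Gm21312, Gm20765 and Gm4340. The last 6 follow each other at steps of 8509 bases. Over the 300-base window, every other promoter of the array found in RefSeq matched that of Gm4340, shown above, at 299 or 300 bases. The summed level of the 7 genes was 78.0 to 80.1 TPM in Ring1b-KO, at most 0.12 in WT and Ring1a-KO, and 0.67 to 0.71 in Ring1a/b-dKO. It was 11.8 to 13.4 TPM in Pcgf-4KO and 87.8 to 105 in Pcgf-6KO, so the Pcgf-6KO libraries all stood above those of Ring1b-KO. All 7 genes were higher in Pcgf-6KO than in Pcgf-4KO, by 1.76 to 2.86 on the log2 scale. Gm4340 itself read 2.51, 0.52 and 3.35 TPM in Pcgf-4KO, then 8.51, 11.36 and 6.65 in Pcgf-6KO (log2 difference 1.76 ± 0.28 SE, adjusted p = 7.79e-05, limma). Its neighbour Gm20765 read 0, 2.12 and 4.31 TPM and then 18.1, 15.01 and 19.54 (2.86 ± 0.39, adjusted p = 1.77e-05). Single copies scattered more between libraries than their sum did.

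A smaller group on the same chromosome (100330540 to 100357117) held Gm8701, Gm4303 and Gm8711. Gm4303, the protein-coding one, was listed at 0 in all WT, Ring1a-KO and Ring1a/b-dKO libraries. It read 7.53, 7.62 and 8.05 TPM in Ring1b-KO, 0.21, 0.98 and 0.97 in Pcgf-4KO, then 10.44, 11.4 and 11.09 in Pcgf-6KO. The Pcgf-6KO libraries were the highest of the 18, and the difference from Pcgf-4KO was 2.84 ± 0.14 (adjusted p = 4.29e-10). All 3 genes of the group passed this test.

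On chromosome 12 (87514316 to 88324026) 15 members lay among 74 annotated genes. Several, such as Gm5662 and BB287469, are kin to the translation factor Eif1a. Their summed level was 75.5 to 97.9 TPM in Ring1b-KO, 8.37 to 12.3 in Pcgf-4KO and 58.3 to 64.5 in Pcgf-6KO, and at most 1.43 in the other groups. The Pcgf-6KO libraries read below those of Ring1b-KO here, but the rule chose the members by a high Ring1b-KO level, so nothing is read from that difference. Gm5662 read 16.62, 18.12 and 17.57 TPM in Ring1b-KO, 2.93, 2.14 and 1.99 in Pcgf-4KO, then 7.74, 7.08 and 8.06 in Pcgf-6KO (Pcgf-6KO against Pcgf-4KO 1.37 ± 0.11, adjusted p = 7.65e-08). Gm8332 reached the Ring1b-KO level in Pcgf-6KO, at 14.77, 13.71 and 14.16 TPM beside 12.8, 10.05 and 24.85 (against Pcgf-4KO 2.72 ± 0.27, adjusted p = 8.1e-07). Of the 15 genes 14 were higher in Pcgf-6KO than in Pcgf-4KO and none lower.

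On chromosome 13 (119836006 to 120318178) 8 members included Tcstv1 and Tcstv3, genes active in the 2-cell embryo. Tcstv3 was listed at 0 in all 9 libraries of WT, Ring1a-KO and Ring1a/b-dKO. It read 4.53, 7.2 and 5.65 TPM in Ring1b-KO, 0.4, 0.57 and 0.5 in Pcgf-4KO, then 4.65, 4.81 and 2.61 in Pcgf-6KO (Pcgf-6KO against Pcgf-4KO 1.72 ± 0.16, adjusted p = 4.17e-07). Ring1b-KO and Pcgf-6KO libraries overlapped, and both stood clear of Pcgf-4KO. Tcstv1 differed by 1.02 ± 0.16 (adjusted p = 7.51e-05) and Gm20767 by 2.73 ± 0.11 (adjusted p = 6.66e-11). In all, 7 of the 8 genes were higher in Pcgf-6KO.

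Prame-like genes encode leucine-rich repeat proteins active in germ cells and early embryos. In their array on chromosome 4 (143511343 to 144364419) lay the 5 members Gm13043, Gm13040, BC080695, Pramef25 and Gm13119. The 300-base promoter of Gm13040 matched that of BC080695 at all 300 bases. BC080695 read 8.02, 9.04 and 7.14 TPM in Ring1b-KO, 0.87, 1.17 and 1.18 in Pcgf-4KO, then 9.77, 9.3 and 14.37 in Pcgf-6KO (2.53 ± 0.13, adjusted p = 7.15e-10). Pramef25 read 3.37, 3.54 and 3.78 TPM, then 0.45, 0.84 and 0.58, then 6.67, 7.21 and 7.24 in the same groups (2.31 ± 0.09, adjusted p = 3.25e-11). All 5 were higher in Pcgf-6KO than in Pcgf-4KO, and for both named genes the Pcgf-6KO libraries also stood above every Ring1b-KO library. Pramel7, a relative on chromosome 2 that acts in the naive pluripotent state, had the same order of the Pcgf groups, but its difference was smaller and not called. It read 6.89, 9.14 and 8.13 TPM in Ring1b-KO but 1.57, 1.75 and 1.99 in Pcgf-4KO, then 2.42, 2.12 and 2.84 in Pcgf-6KO (0.32 ± 0.17, adjusted p = 0.133).

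Tmem92, a membrane protein gene of the 2-cell-like list, lay on chromosome 11 (94777217 to 94782703) beside the pseudogenes Gm11546, AA623943 and Gm11543. It read 8.35, 8.64 and 8.19 TPM in Ring1b-KO, 1.72, 1.05 and 0.93 in Pcgf-4KO, then 9.28, 9.09 and 9.64 in Pcgf-6KO, and at most 0.18 elsewhere. The difference between the Pcgf groups was 2.23 ± 0.11 (adjusted p = 4.32e-10), and its 3 neighbours were higher in Pcgf-6KO as well. The deubiquitinase genes Usp17lc and Usp17le, on chromosome 7 but apart from each other, differed by 1.09 ± 0.11 (adjusted p = 6.95e-07) and 2.19 ± 0.11 (adjusted p = 3.51e-10). Usp17le read 2.71, 2.75 and 2.49 TPM in Ring1b-KO and 6.45, 6.6 and 8.7 in Pcgf-6KO, all above Ring1b-KO. On the same chromosome Crxos, a homeobox gene of the early embryo, fell in a group with 2 Obox4 pseudogenes. Crxos read 11.52, 13.78 and 12.09 TPM in Ring1b-KO, 2.27, 2.35 and 3.79 in Pcgf-4KO, then 8.42, 5.51 and 6.22 in Pcgf-6KO (1.03 ± 0.18, adjusted p = 0.000264). Obox4-ps28 had the reverse order of Ring1b-KO and Pcgf-6KO: 3.6, 3.24 and 2.36 TPM against 10.89, 10.44 and 10.44 (Pcgf-6KO against Pcgf-4KO 2.54 ± 0.22, adjusted p = 1.38e-07).

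**Figure D3:**
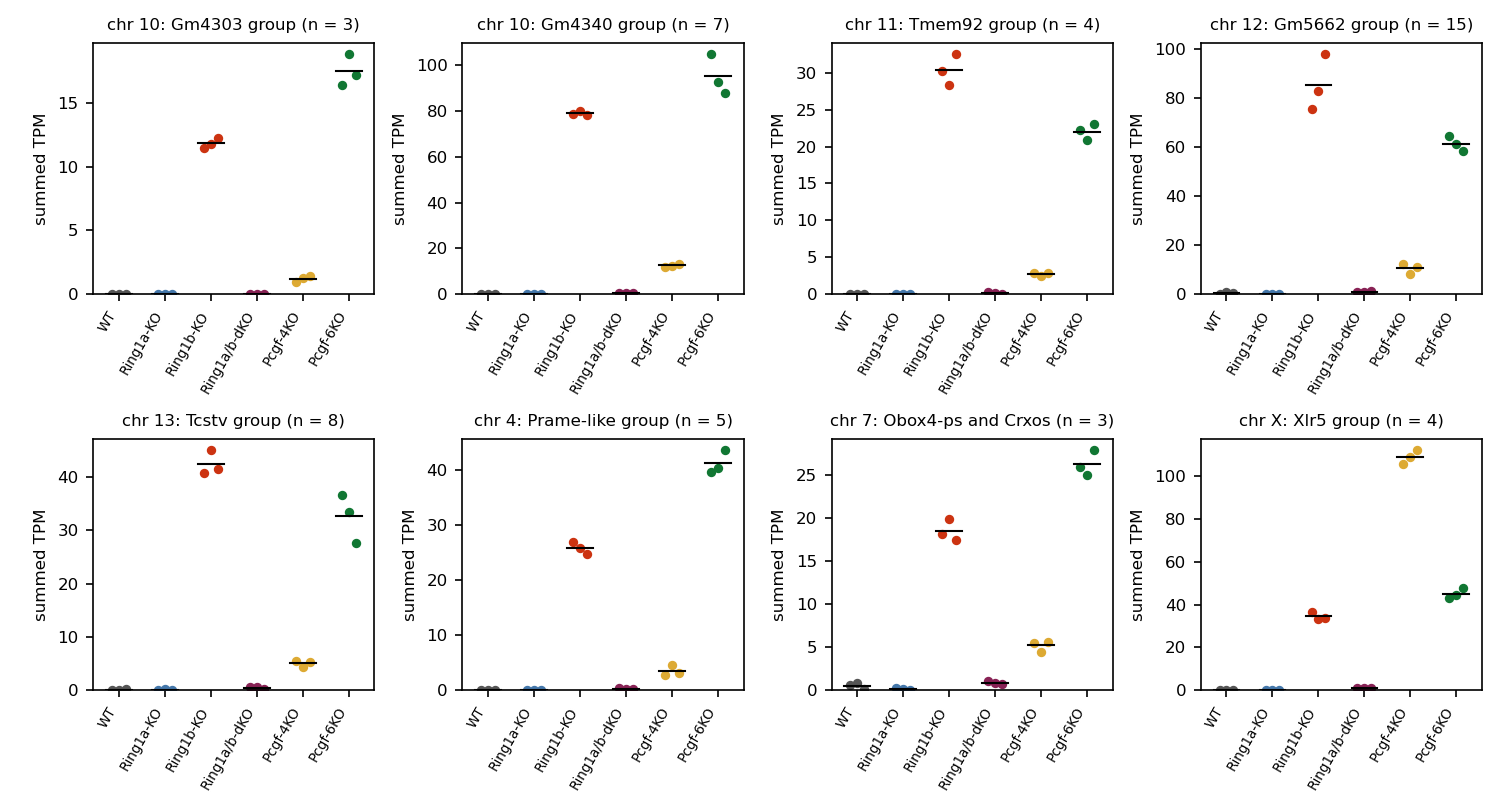
Summed TPM (y axis) of the members of 8 positional groups in each library (points) of the 6 genotype groups (x axis), with the group mean as a bar and the number of summed genes in each title. In 7 panels Pcgf-4KO lies far below Ring1b-KO and Pcgf-6KO, and in the X-chromosome panel Pcgf-4KO is highest at 106 to 112 TPM.

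Of a list of 53 2-cell-like genes outside the Zscan4 family that were in the table, 24 were members. In Pcgf-6KO against Pcgf-4KO 23 of the 24 were higher and 0 lower, with a median difference of 1.73. The other tested genes of the list, 16 in number, were higher for 12 and lower for 2. Over all genes tested, 28.8% were higher and 24% lower. In Ring1a-KO against WT limma called 0 of 24, also with 0 at an unadjusted p under 0.05, beside 12.3% of all genes higher and 10.8% lower. The means of the 24 were at most 0.3 TPM in both groups, where the log2(TPM + 1) scale can hardly show a difference. The list overlaps the arrays above, and it was written with results of these data known. The Zscan4 genes themselves had the same order: Zscan4c read 12.54, 11.1 and 11.85 TPM in Ring1b-KO, 1.43, 1.5 and 1.95 in Pcgf-4KO, 8.04, 10.72 and 9.42 in Pcgf-6KO and at most 0.09 in the other groups. Duxf3, the gene for DUX, fell outside the set because its Ring1b-KO mean was 1.71 TPM. Its mean was also 1.71 TPM in Pcgf-6KO, 0.21 in Pcgf-4KO, 0.06 in Ring1a/b-dKO, 0.01 in WT and 0 in Ring1a-KO, with a difference between the Pcgf groups of 1.15 ± 0.14 (adjusted p = 6.63e-06). All 21 genes listed as regulators of the 2-cell-like state were at 1 TPM or more in WT, so none could be a member. Of them 2 were higher and 14 lower in Pcgf-6KO than in Pcgf-4KO. Of 20 E2F6, MGA and L3MBTL2 partners of variant PRC1, of which 1 was under 1 TPM in WT, 3 were higher and 8 lower.

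Listed developmental Polycomb targets did not meet the rule: 0 of 39 Hox genes and 0 of 109 other homeobox and developmental factors were members. In Ring1b-KO 17 and 41 of them reached 2 TPM. All 39 Hox genes but only 91 of the 109 factors were under 1 TPM in WT, so the 41 may include genes already on in WT. Of all 42282 genes under 1 TPM in WT, 274 were members, so a short list may well hold none. Among genes that met the same WT and Ring1b-KO limits, these 274 stood beside 491 at 1 TPM or more in the double knockout. The summed Hox level was 98.0 to 102 TPM in Ring1b-KO and 181 to 189 in Ring1a/b-dKO. All 37 tested Hox genes were also higher in Pcgf-6KO than in Pcgf-4KO, with a median difference of 1.61, so that order was not particular to the members. The trophoblast, neural, muscle, fibroblast, blood and imprinted lists held no member, but each had at most 22 genes under 1 TPM in WT, and the naive pluripotency list had 0 such genes. The germline list gave 3 members of 89 and the endoderm list 1 of 26, which are described next.

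The X-chromosome group (73107635 to 73292976) ran the other way between the Pcgf groups. Xlr5a, Xlr5b and Xlr5c, lymphocyte-regulated genes of a family active in germ cells, and DXBay18 summed to 33.2 to 36.5 TPM in Ring1b-KO, 106 to 112 in Pcgf-4KO and 43.0 to 47.9 in Pcgf-6KO, beside at most 0.26 in WT and Ring1a-KO and 0.92 to 1.17 in Ring1a/b-dKO. Xlr5b read 15.25, 11.57 and 11.43 TPM in Ring1b-KO, 42.12, 42.66 and 42.59 in Pcgf-4KO, then 14.82, 13.4 and 16.15 in Pcgf-6KO, a difference of -1.46 ± 0.11 (adjusted p = 4.98e-08). Xlr5a (-1.13 ± 0.09, adjusted p = 7.64e-08) and Xlr5c (-1.79 ± 0.12, adjusted p = 7.6e-09) were lower in Pcgf-6KO too. DXBay18 differed by -0.33 ± 0.09 (adjusted p = 0.00751), a call lost with a pseudocount of 0.1 (adjusted p = 0.299). The annotated span of Xlr5a contains the other 3 genes, so reads may have been split among them. The stretch printed above for Xlr5a lies within that span too.

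Piwil1 and Npm2 were the other germline members. Piwil1, which binds piRNAs in the testis, read 2.49, 3.34 and 3.26 TPM in Ring1b-KO, 1.81, 1.73 and 1.62 in Pcgf-4KO, then 0.81, 0.78 and 0.93 in Pcgf-6KO (-0.56 ± 0.09, adjusted p = 0.000133). Npm2, the oocyte nucleoplasmin, read 6.37, 5.85 and 4.23 TPM, then 0.77, 0.79 and 0.78, then 3.15, 3 and 1.83 in the same groups (1.02 ± 0.17, adjusted p = 0.000137). The pair thus moved in opposite directions between the Pcgf groups. Dnajc5g, a relative of the synaptic chaperone cysteine string protein, followed Piwil1: it read 4.18, 2.36 and 4.56 TPM in Ring1b-KO, 6.2, 6.41 and 5.94 in Pcgf-4KO, then 1.46, 1.63 and 2.17 in Pcgf-6KO (-1.39 ± 0.16, adjusted p = 4.11e-06). Grin2a, a subunit of the NMDA glutamate receptor, was instead higher in Pcgf-6KO, like Npm2. It read 4.34, 3.41 and 4.63 TPM in Ring1b-KO, 2.36, 2.55 and 2.85 in Pcgf-4KO, then 6.73, 7.34 and 6.78 in Pcgf-6KO (1.15 ± 0.12, adjusted p = 1.05e-06).

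**Figure D4:**
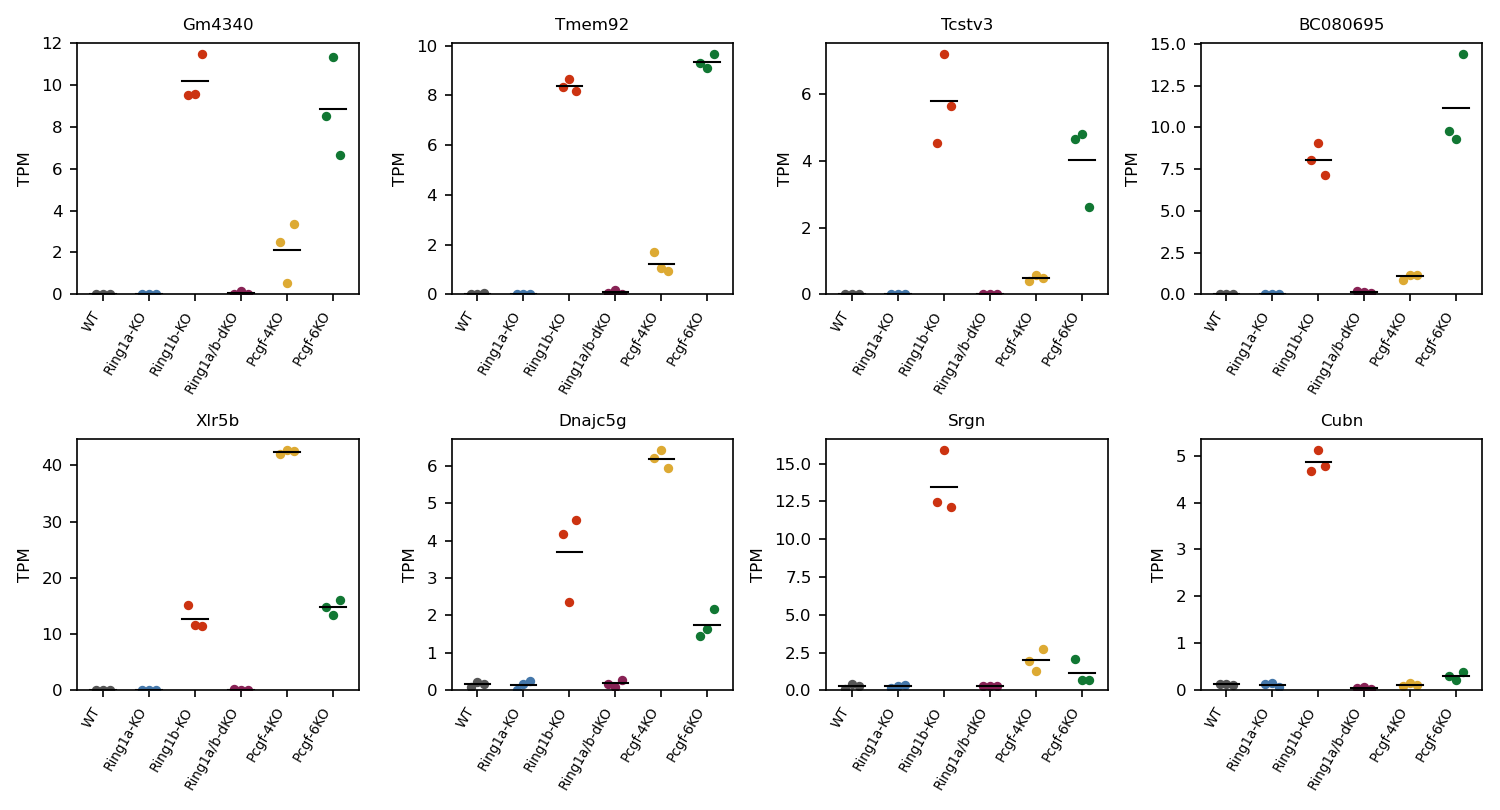
TPM (y axis, its own scale in each panel, starting at 0) of 8 members in each library (points) of the 6 genotype groups (x axis), with the group mean as a bar. Gm4340, Tmem92, Tcstv3 and BC080695 are high in Ring1b-KO and Pcgf-6KO, Xlr5b and Dnajc5g are highest in Pcgf-4KO, and Srgn and Cubn are much higher in Ring1b-KO than in the other 5 groups.

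A further pattern was a high level in Ring1b-KO and a much lower one in the other 5 groups, which was not always the WT level. Cubn, the endocytic receptor cubilin of kidney, gut and yolk sac endoderm, read 4.67, 5.11 and 4.78 TPM in Ring1b-KO, and its highest value in any other library was 0.4 TPM, in Pcgf-6KO replicate 3. It was slightly higher in Pcgf-6KO than in Pcgf-4KO (0.22 ± 0.08, adjusted p = 0.0351), a call lost without Pcgf-6KO replicate 1 (adjusted p = 0.068) or 3 (0.131), or without Pcgf-4KO replicate 1 (0.0926) or 3 (0.0692), and turned by quantile normalization (-0.02, adjusted p = 0.873). It was also called higher in Pcgf-6KO than in WT (0.21 ± 0.08, adjusted p = 0.0303). That call was lost without Pcgf-6KO replicate 1 (adjusted p = 0.0569) or 3 (0.123), without WT replicate 1 (0.0612), 2 (0.0611) or 3 (0.0688), and with median ratio scaling (0.0803). Quantile normalization turned this difference too (-0.30, adjusted p = 0.00196). Srgn, the secretory granule proteoglycan serglycin, read 12.45, 15.88 and 12.13 TPM in Ring1b-KO, 1.95, 1.25 and 2.76 in Pcgf-4KO, then 2.09, 0.66 and 0.7 in Pcgf-6KO. The last 2 groups overlapped (-0.51 ± 0.22, adjusted p = 0.0676), and the difference was called without Pcgf-6KO replicate 1 (adjusted p = 0.00253) or Pcgf-4KO replicate 2 (0.0227). Against WT, Srgn was higher in Pcgf-4KO (1.22 ± 0.22, adjusted p = 0.000175) and in Pcgf-6KO (0.71 ± 0.22, adjusted p = 0.00895). The latter call was lost without Pcgf-6KO replicate 1 (adjusted p = 0.0537) or with quantile normalization (0.613). The lncRNA Gm30363 read 14.07, 16.79 and 18.08 TPM in Ring1b-KO and at most 1.29 in any other library. It was higher in Pcgf-4KO than in WT (0.48 ± 0.16, adjusted p = 0.0148), a call lost without Pcgf-4KO replicate 2 (adjusted p = 0.0558) or 3 (0.0752), without WT replicate 1 (0.0688) or with quantile normalization (0.473). S100g, the vitamin D-dependent calcium-binding protein calbindin-D9k, read 3.05, 2.42 and 3.43 TPM in Ring1b-KO, 0.27 in 1 library of Ring1a/b-dKO and 0 in the other 14. Cd3g, a subunit of the T-cell receptor complex, read 3.44, 4.93 and 3.74 TPM there and at most 1.16 elsewhere. Ren1, the gene for renin, met the rule through 1 library, with 9.23, 0.48 and 0.6 TPM in Ring1b-KO.

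In Ring1a-KO against WT 2 named members were higher and 1 was lower. Them5, a mitochondrial thioesterase gene, read 0.71, 0.67 and 1.1 TPM in WT, 2.38, 1.74 and 3.38 in Ring1a-KO and 2.18, 3.65 and 2.56 in Ring1b-KO, but at most 0.54 in the remaining groups (Ring1a-KO against WT 0.92 ± 0.17, adjusted p = 0.00103). Its levels were alike in both single knockouts, whose libraries overlapped. Mybpc1, a myosin-binding protein gene of slow muscle, read 0.62, 0.58 and 0.63 TPM in WT and 1.08, 1.35 and 1.77 in Ring1a-KO (0.57 ± 0.13, adjusted p = 0.00549). Hdc, the histidine decarboxylase gene, was the single lower one, with 0.7, 1.23 and 0.85 TPM in WT and 0.33, 0.41 and 0.24 in Ring1a-KO (-0.53 ± 0.14, adjusted p = 0.0107). Ring1a-KO replicates 2 and 3 held 1.43% and 0.754% of TPM in small RNA genes, and no other library more than 0.404%. Without those 2 libraries Them5 stayed called (adjusted p = 0.012), Mybpc1 (0.215) and Hdc (0.121) did not, and the count fell to 2 higher and 0 lower. Without WT replicate 2 Hdc missed the threshold (0.0583), and the count was 5 higher and 0 lower.

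**Figure D5:**
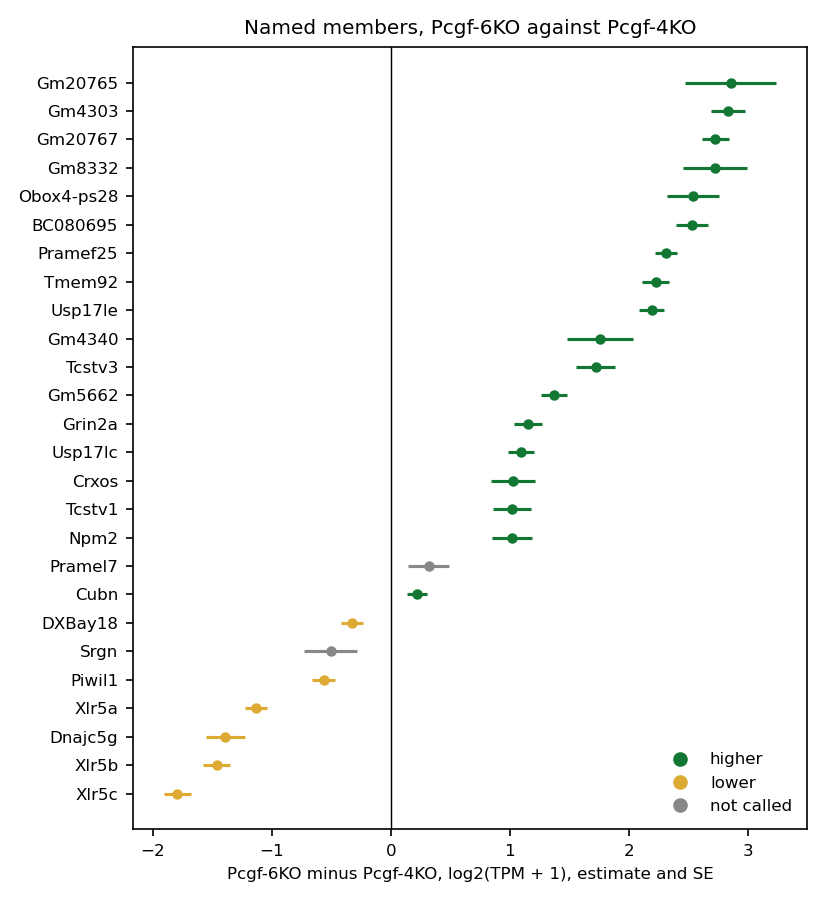
Difference between Pcgf-6KO and Pcgf-4KO on the log2(TPM + 1) scale (x axis) for 26 named members (y axis), as the limma estimate with its SE, coloured by the call at an adjusted p under 0.05. Of the 26, 18 are higher in Pcgf-6KO, 6 lower and 2 not called.

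Other features of the libraries moved with the groups. Most targeted genes were still detected at the RNA level: the mean of Rnf2, which encodes RING1B, was 71.3 TPM in WT, 49.4 in Ring1b-KO and 22.8 in Ring1a/b-dKO, and Ring1 (RING1A) was at 7.21, 4.05 and 6.09 TPM in WT, Ring1a-KO and Ring1a/b-dKO. The mean of Pcgf6 was 53.0 TPM in WT but 0.06 in the Pcgf-4KO libraries and 10.6 in those of Pcgf-6KO. Means in WT, Pcgf-4KO and Pcgf-6KO were 10.9, 1.23 and 3.03 TPM for Pcgf1, then 68.6, 55.3 and 16.8 for Pcgf2 and 13.2, 11.8 and 12.4 for Pcgf3. Knocked-out genes with a higher mean than in WT were Pcgf5 (9.55, 14.5 and 22.1 TPM) and, in Pcgf-6KO, Bmi1, which encodes PCGF4 (1.60, 11.4 and 15.6 TPM). The labels do not say which exons were removed, so a gene-level value does not check them. The ES cell factor Pou5f1 averaged 412 to 1112 TPM over the groups. Nanog, another ES cell factor, averaged 387 TPM in Ring1b-KO, its highest group. The WT mean of Nanog was 108 TPM, and its double-knockout mean was 36.3 TPM. Sox2 (211 TPM in Ring1b-KO) and Zfp42 (74.6 TPM) were not highest there. The naive pluripotency list summed to 1719 to 1766 TPM in Ring1b-KO, its highest group. It summed to 1158 to 1182 TPM for WT and 1268 to 1287 TPM for the double knockout. The summed level of 10 Y-linked genes was 70.5 to 76.8 TPM in WT, its highest group, and at most 11.04 in Ring1b-KO. It was 44.6 to 58.2 TPM in Pcgf-6KO and at most 0.41 in the other libraries. All 6 tested Y-linked genes were higher in Pcgf-6KO than in Pcgf-4KO. Between the Pcgf groups, 18 of 23 tested trophoblast genes were higher in Pcgf-6KO (summed level 2825 to 2857 TPM against 8093 to 8174) and 17 of 18 naive pluripotency genes lower (1495 to 1539 against 821 to 870). Of 10 tested fibroblast markers 3 were higher and 1 lower (122 to 128 against 137 to 170 TPM), and of 7 blood markers 0 were higher and 4 lower (23.4 to 24.4 against 14.2 to 17.3 TPM in sum). The part of these differences in the members' levels was not tested.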

How the data were processed

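The authors deposited TPM for 56551 genes in 18 libraries. Per the submitters' processing notes, TopHat2 2.1.1, RSEM, edgeR and GRCm38.p5 were used. The annotation release is not given in the sources used here. TPM holds no read counts, so depth is unknown and no counting interval is printed. A further 6 columns hold the authors' group means and were not used. Positions and symbols came from GENCODE M21 (GRCm38).

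The members, the gene lists and the comparisons were chosen with earlier results of these data known. The 17842 genes that reached 1 TPM in 3 libraries or more were tested as log2(TPM + 1) with limma 3.58.1 (R 4.3.3), 1 mean per group over all 18 libraries and a trend on the mean level. Tests were two-sided, with Benjamini-Hochberg adjustment within each of 6 comparisons at 0.05. The fit was tested on simulated data, with changes planted only in genes of a higher Pcgf-4KO level than most members. The median of the members' Pcgf-4KO means was 0.62 TPM, so the simulation does not cover their range. Values are TPM by replicate 1, 2 and 3, and differences are estimate ± SE (n = 3 per group).

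Named genes were the members with the highest means in Ring1b-KO and in the groups that the rule did not use, list members, members next to a threshold, and members within 1 Mb of another. Grin2a, Gm30363, S100g, Ren1 and Hdc were chosen after their values were seen, as were the 5 printed promoters. RefSeq promoters were matched by gene ID or symbol.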

Additional observations from a re-analysis of the deposited data

How the results depend on the processing

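The rule took 792 genes with a Ring1b-KO limit of 1 TPM and 109 with a limit of 5 TPM. Other limits, medians, median ratio scaling and leaving out single libraries of the 3 groups it uses gave 197 to 298, and the libraries left out in turn 273 to 288. With a filter of 5 TPM, which left 81 members tested, those called higher were 54 (Pcgf-6KO against Pcgf-4KO), 54 (Pcgf-4KO against Ring1a-KO), 66 (Pcgf-6KO against Ring1a-KO), 3 (Ring1a-KO against WT), 57 (Pcgf-4KO against WT) and 66 (Pcgf-6KO against WT), and members called lower 9, 1, 1, 0, 0 and 0. Among nuclear protein-coding genes only, with 99 members tested, those called higher were 60, 64, 80, 4, 62 and 79, and those lower in Pcgf-6KO against Ring1a-KO 2.

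For members called lower, the other settings gave these counts. In Pcgf-6KO against Pcgf-4KO there were 11 with a pseudocount of 0.1 and 10 with the 2 groups fitted alone. Quantile normalization gave 21 in Pcgf-4KO against Ring1a-KO, 27 in Pcgf-6KO against Ring1a-KO, 2 in Ring1a-KO against WT, 15 in Pcgf-4KO against WT and 20 in Pcgf-6KO against WT. Against WT, a pseudocount of 0.1 gave 6 for Ring1a-KO, 5 for Pcgf-4KO and 4 for Pcgf-6KO, median ratio scaling 2, 7 and 5, and the 2 groups alone 0, 0 and 0. With the 2 groups alone, members called higher were 42 in Pcgf-4KO against Ring1a-KO, 44 in Pcgf-4KO against WT and 4 in Ring1a-KO against WT, and with no filter 5 in the last. The cause was not tested. Leaving out 1 library gave 110 to 114 higher and 14 to 17 lower (Pcgf-6KO against Pcgf-4KO), 85 to 111 and 4 to 7 (Pcgf-4KO against Ring1a-KO), 135 to 151 and 4 to 6 (Pcgf-6KO against Ring1a-KO), 5 to 9 and 0 to 3 (Ring1a-KO against WT), 108 to 112 and 2 to 4 (Pcgf-4KO against WT) and 144 to 151 and 1 to 4 (Pcgf-6KO against WT). Without Ring1a-KO replicates 2 and 3 together, chosen after seeing the data, Ring1a-KO against WT gave 2 and 0.

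Same-numbered libraries did not deviate together (correlations of -0.109 to 0.0638), so the main fit did not pair them. The labels do not tell whether they were prepared together, and these correlations cannot settle it. With a replicate block the counts were 113 higher and 16 lower (Pcgf-6KO against Pcgf-4KO), 110 and 7 (Pcgf-4KO against Ring1a-KO), 153 and 5 (Pcgf-6KO against Ring1a-KO), 9 and 1 (Ring1a-KO against WT), 114 and 6 (Pcgf-4KO against WT) and 152 and 3 (Pcgf-6KO against WT). Cubn reached an adjusted p of 0.0523 under the block and changed direction under quantile normalization (-0.016), as did its difference between Pcgf-6KO and WT (-0.30). TPM keeps no depth, so limits set by counting cannot be given.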

Other observations

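Some genes next to the members missed 1 limit of the rule but had a like order of levels, as in these examples, chosen after their values were seen. In the X-chromosome group, Xlr4b and Xlr4c, kin of the Xlr5 genes, were left out because their Ring1a/b-dKO means were 2.84 and 1.63 TPM. Xlr4b averaged 20.1 TPM in Ring1b-KO, 42.7 in Pcgf-4KO and 31.2 in Pcgf-6KO, and Xlr4c 9.98, 30.4 and 24.0. Xlr3c averaged 23.0, 54.3 and 37.6 TPM in the same groups, with 4.27 in Ring1a/b-dKO and 0.47 in WT. In the smaller group on chromosome 10, Gm4301 and Gm4302 missed the Ring1b-KO limit at 1.26 and 1.23 TPM. They averaged 1.57 and 2.12 TPM in Pcgf-6KO and 0.06 and 0.24 in Pcgf-4KO, and were listed at 0 in WT, Ring1a-KO and Ring1a/b-dKO. Other neighbours had another order: Klk7, in the chromosome 7 group of Klk5, averaged 1.31 TPM in Ring1b-KO and 9.83 in Pcgf-6KO, Gm21188 in the chromosome 13 group was listed at 0 in Ring1b-KO and averaged 1.86 TPM in Pcgf-6KO, and Tpt1, beside Snora31 on chromosome 14, averaged 2150 to 2863 TPM over the groups.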
